A study of Mus musculus with 12 samples.

Results

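The 34 genes described here are the glycolysis and hypoxia response genes that were chosen by symbol: the enzymes and transporters that take glucose to lactate, the regulators of that flux, and the oxygen-sensing factor Hif1a with a set of its known targets. They were read from a table of 23586 genes in cultured muscle stem cells, the resident progenitors of mouse skeletal muscle. All 34 symbols were found, in 35 rows, because Aldoa was listed under a second identifier with 1.59 to 14.7 normalized counts per library. That row did not pass the filter on low values, which left 34 rows, 1 per symbol, among the 14580 genes tested.

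All cells carried the reporter genotype Pax3nLacZ-IRES-GFP and were sorted for GFP, as GFP-positive (PAX3+) or GFP-negative (PAX3-) cells. The culture medium held 20% serum and basic FGF at 4 ng/mL, and cells received either pCR3-Six2, a plasmid with the mouse cDNA of the homeobox factor Six2, or empty pCR3, at 2 µg by lipid transfection. The 4 groups, with 3 bulk RNA libraries each, were GFP-positive SIX2, GFP-positive control, GFP-negative SIX2 and GFP-negative control. The labels give no age or strain background, do not say which share of the cells took up plasmid, and leave unstated whether libraries sharing a group are from different animals or cultures. P-values therefore cover the spread among these libraries alone.

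Glycolysis breaks glucose down to pyruvate in the cytosol, and lactate dehydrogenase turns pyruvate into lactate, which leaves the cell through monocarboxylate transporters. Muscle uses its own isozymes at several steps, such as PFKM, PGAM2 and ENO3, beside the broadly expressed forms. Under low oxygen the factor HIF-1 escapes the prolyl hydroxylases encoded by the Egln genes and raises glucose transport, most glycolytic enzymes and genes such as Vegfa and Bnip3.

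Reads per library totalled 12632428 to 15492340 for GFP-positive SIX2, 31295165 to 47299937 for GFP-positive control, 34048869 to 40182810 for GFP-negative SIX2 and 12438885 to 33151990 for GFP-negative control. Six2 itself did not check the plasmid labels: it had 28.6, 23.4 and 6.51 normalized counts in GFP-positive SIX2 libraries against 5.35, 13.3 and 3.37 in GFP-positive control libraries. The GFP-negative libraries had 22.8, 23.7 and 19.2 under the SIX2 label against 4.28, 15.9 and 24.4 under the control label. The groups overlap in both populations, so the groups are named below by their labels. Pax3 averaged 72.2 ± 19.0 normalized counts in GFP-positive control libraries and 71.4 ± 2.79 in GFP-negative control libraries (SD, n = 3 each), so at this time its RNA did not separate the sorted populations. Under the SIX2 label the Pax3 mean was 10.4 ± 5.69 in GFP-positive cells and 16.5 ± 2.72 in GFP-negative cells (SD, n = 3 each).

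Promoter sequences were taken from RefSeq (GRCm38.p6) as windows of 250 bases before and 50 after each gene's start, and 32 of the 34 members matched, with 46 windows. The letters ACGTG, the core of the hypoxia response element that HIF-1 binds, were searched on both strands and found in 25 of the 46 windows (54.3%), against 19.6% of all 32851 windows. They were present in at least 1 window of 22 of the 32 matched genes. The E-box CACGTG, which contains ACGTG on either strand, was found in 13.0% of member windows and 7.2% of all windows. Member windows were not matched to the others for base composition, and some members had more than 1 window (Pfkm 4, Aldoa 3). Many members are textbook HIF-1 targets, and a match of letters is a description and not a binding site.

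The 250 bases before the start are shown for 4 genes that changed with the plasmid label and that differ in these letters: the isozyme pair Pgam2 and Pgam1, which moved in opposite directions in GFP-positive cells, and Pfkp and Bnip3, which were higher in both populations. Pgam2 lies on the minus strand at chr11:5803797-5804046 and Pgam1 on the plus strand at chr19:41911621-41911870. Pfkp lies on the minus strand at chr13:6648772-6649021 and Bnip3 on the minus strand at chr7:138909507-138909756. Capitals mark ACGTG or CACGTG, which start 114 bases before the start in Pgam1 and 108 bases before it in Bnip3.
Pgam2: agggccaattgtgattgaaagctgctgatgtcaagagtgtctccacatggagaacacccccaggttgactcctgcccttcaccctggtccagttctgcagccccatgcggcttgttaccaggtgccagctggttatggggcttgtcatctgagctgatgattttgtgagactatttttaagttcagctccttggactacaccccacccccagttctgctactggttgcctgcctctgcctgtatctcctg
Pgam1: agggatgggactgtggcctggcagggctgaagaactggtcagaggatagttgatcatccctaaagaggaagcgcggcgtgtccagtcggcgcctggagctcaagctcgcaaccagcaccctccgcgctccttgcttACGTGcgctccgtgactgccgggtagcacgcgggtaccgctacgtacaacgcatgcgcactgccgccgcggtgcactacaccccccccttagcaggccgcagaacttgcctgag
Pfkp: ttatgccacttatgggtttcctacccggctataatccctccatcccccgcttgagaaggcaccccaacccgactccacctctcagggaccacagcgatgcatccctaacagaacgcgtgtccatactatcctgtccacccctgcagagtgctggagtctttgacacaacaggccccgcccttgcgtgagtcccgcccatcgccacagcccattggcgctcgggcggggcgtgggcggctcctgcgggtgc
Bnip3: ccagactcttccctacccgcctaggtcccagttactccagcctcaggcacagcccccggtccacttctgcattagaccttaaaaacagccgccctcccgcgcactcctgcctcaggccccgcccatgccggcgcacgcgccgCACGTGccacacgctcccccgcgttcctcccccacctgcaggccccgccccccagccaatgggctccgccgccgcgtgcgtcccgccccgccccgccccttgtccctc
The Pgam2 and Pfkp windows held neither ACGTG nor CACGTG in these 250 bases.

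The members differed widely in level. Per kilobase of transcript, averaged over the 12 libraries, the aldolase Aldoa was highest with 99306 normalized counts per kb, rank 14 of 23550 genes with a length. Gapdh, Ldha, Pkm and Eno3 followed with 94353, 65325, 52095 and 49131 normalized counts per kb. The angiogenic ligand Vegfa was lowest with 16.1 per kb, and the glucose transporter Slc2a3 had 22.9 per kb. Of the glucose transporters, Slc2a1 was the more abundant with 727 per kb. The muscle forms exceeded the broad forms at the phosphoglycerate mutase step (28570.2 per kb for Pgam2, 6068 for Pgam1) and the phosphofructokinase step (6512 for Pfkm, 1191 for Pfkl, 739 for Pfkp). The enolases differed less, with 49131 per kb for Eno3 and 29902 for Eno1.

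**Figure D1:**
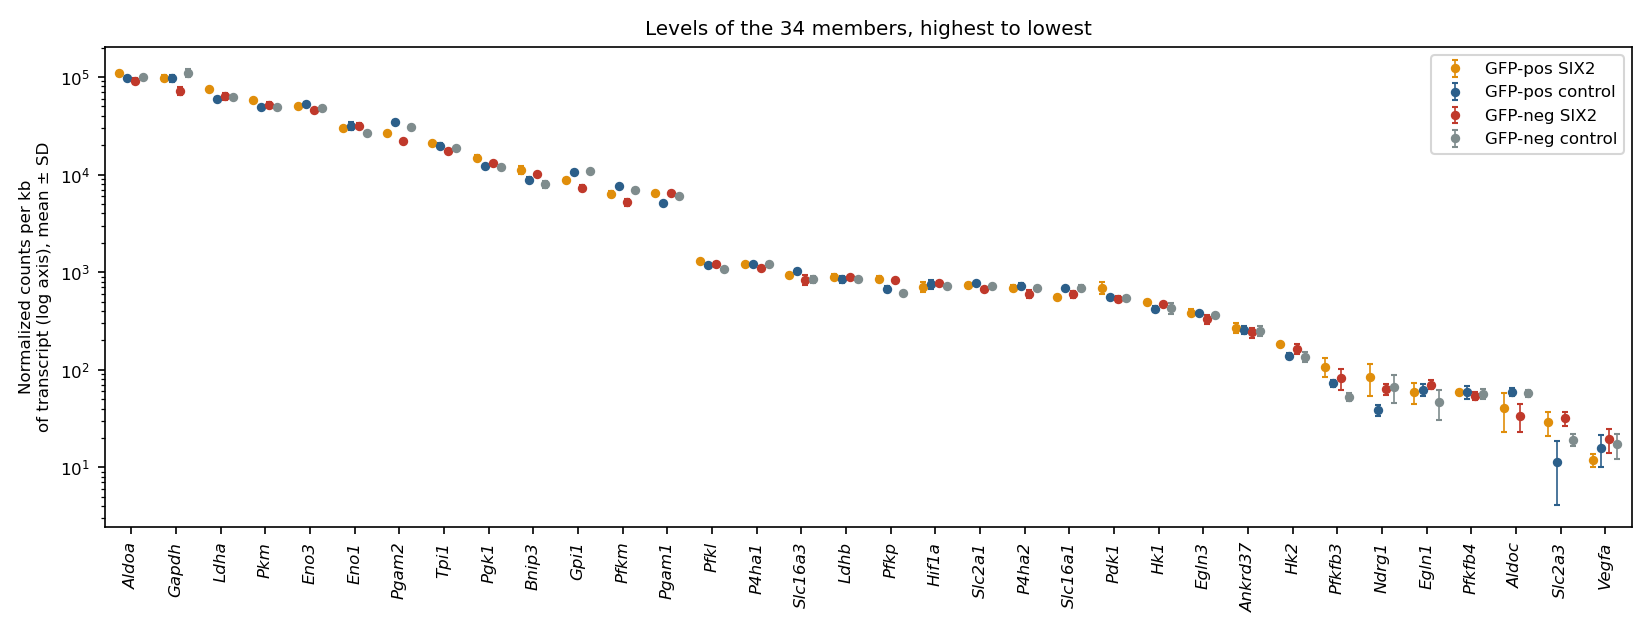
Mean normalized counts per kilobase of transcript (log axis) with SD over 3 libraries for the 34 members, ordered from highest to lowest mean, with the 4 groups in colour. Aldoa is highest at 99306 per kb over all libraries and Vegfa lowest at 16.1 per kb, and for most members the 4 groups lie close together compared with the distance between genes.

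Together the members took 3.63% to 3.77% of all normalized counts in GFP-positive SIX2 libraries, against 3.19% to 3.34% in GFP-positive control libraries. In GFP-negative cells the share was 3.07% to 3.35% under the SIX2 label and 3.23% to 3.27% under the control label. The 3 GFP-positive SIX2 libraries, which are also 3 of the 4 least deeply sequenced, had the highest shares. Whether the depth plays a part was not tested.

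The plasmid label was read in each population with limma-trend on log2(normalized count + 1), with p-values adjusted over all 14580 genes and a threshold of 0.05. In GFP-positive cells 14 of the 34 members passed, 10 higher and 4 lower under the SIX2 label, beside a background of 23.3% of all genes tested, 12.1% higher and 11.2% lower. The share of members was 41.2%. Among GFP-negative cells 10 members passed, 5 higher and 5 lower, beside a background of 27.9%, 13.6% higher and 14.3% lower, and the members' share of 29.4% was near it. With only genes of a mean of at least 50 fitted, 14 and 11 members passed in GFP-positive and GFP-negative cells. Of all 11330 genes in that fit, 3355 and 3957 passed, so the background was higher there. Groups did not overlap for 13 members that were higher and 5 that were lower in GFP-positive cells, beside 18.7% and 18.1% of all genes, and for 7 higher and 9 lower in GFP-negative cells, beside 22.8% and 23.5%. The split moved with the scaling: quantile scaling gave 14 higher and 2 lower in GFP-positive cells and 9 higher and 5 lower in GFP-negative cells. In GFP-negative cells, 2 members were higher and 5 lower without either GFP-negative control library 2 or GFP-negative SIX2 library 2, and 2 higher and 4 lower without GFP-negative control library 1. Library weights gave 11 higher and 7 lower there. The members' median log2 change was 0.04 in GFP-positive and -0.03 in GFP-negative cells, beside medians of -0.0070 and 0.0046 over all genes tested. Both medians lay near 0, and the called members went in both directions.

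**Figure D2:**
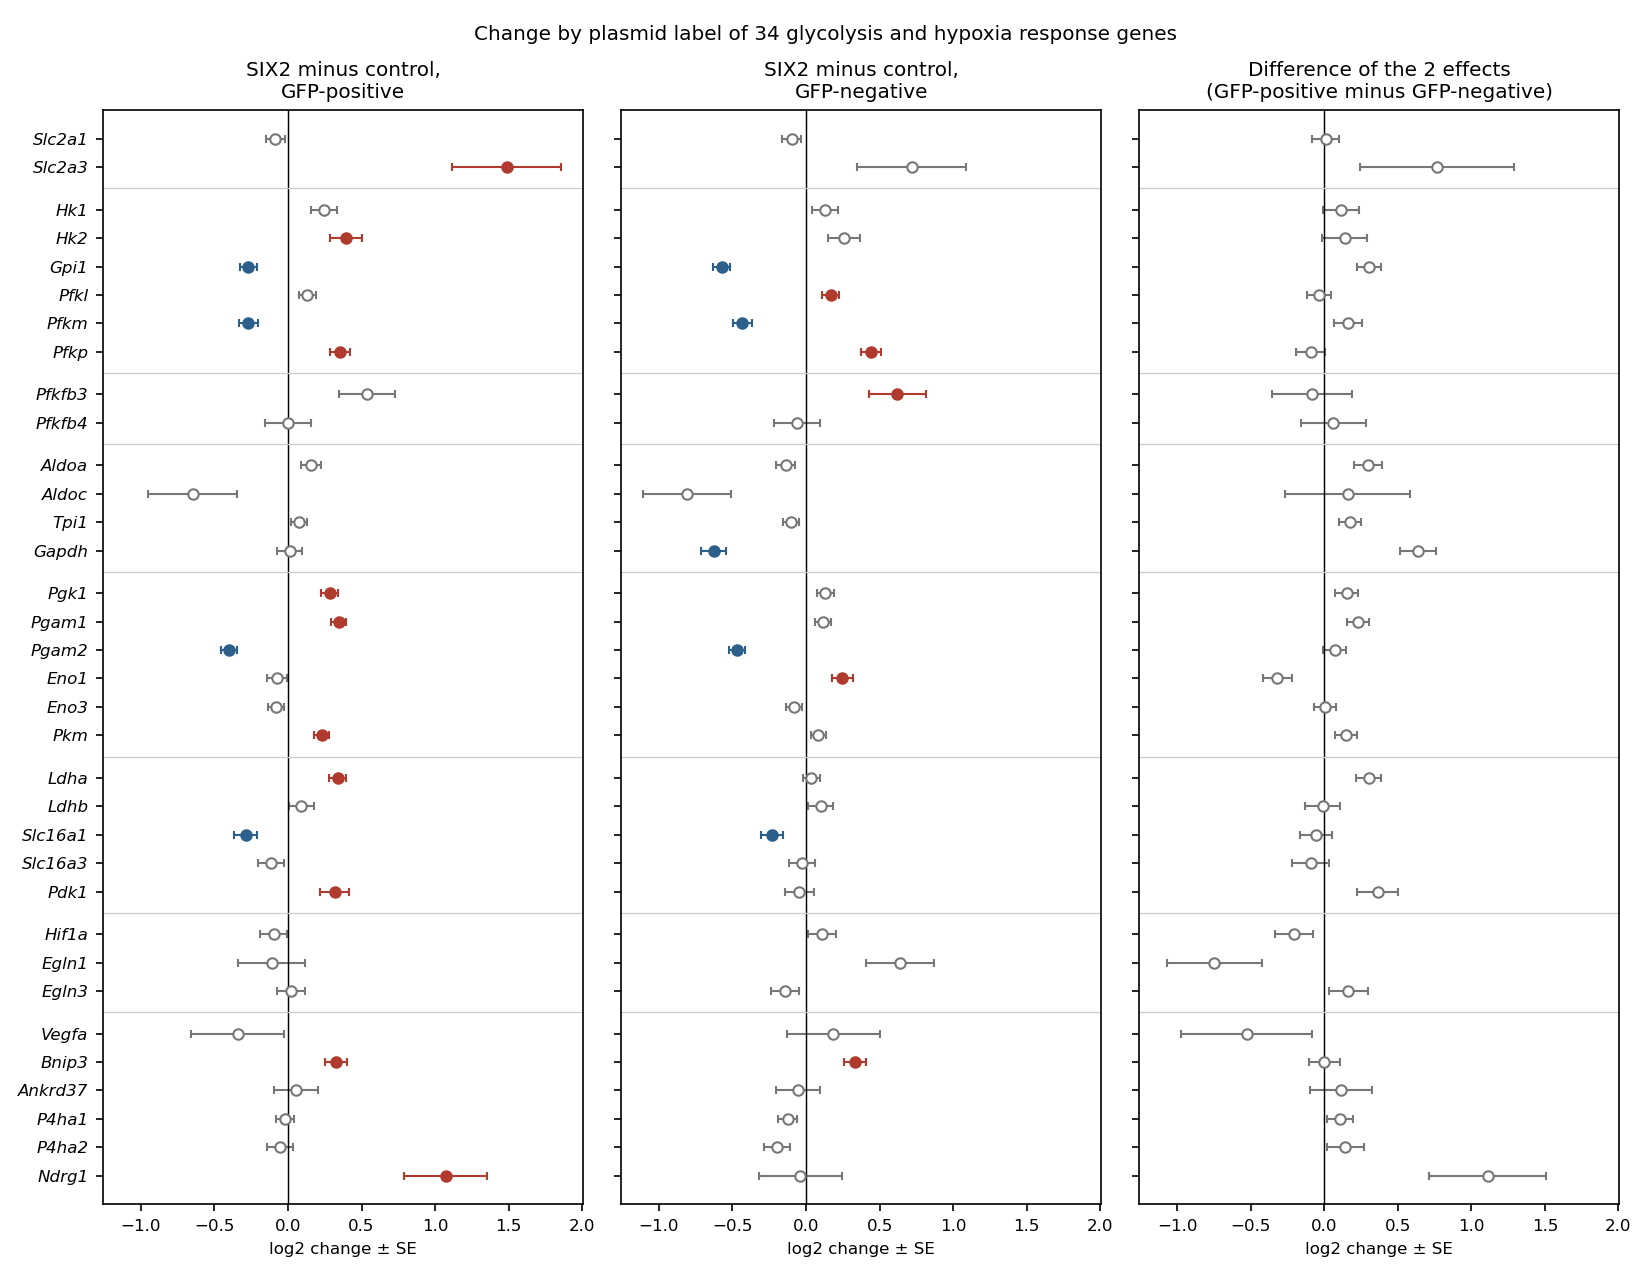
Log2 change with SE by plasmid label for the 34 members, ordered by role from glucose transport at the top to hypoxia targets at the bottom, in GFP-positive cells (left), in GFP-negative cells (middle), and the difference of the changes, GFP-positive minus GFP-negative (right). Filled symbols passed a limma-trend adjusted p of 0.05, red for higher and blue for lower under the SIX2 label: 14 are filled on the left, 10 in the middle and 0 on the right.

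Members called in both populations numbered 6, all with the same direction: Pfkp and Bnip3 were higher, and Pgam2, Pfkm, Gpi1 and Slc16a1 were lower under the SIX2 label. They were 42.9% of the GFP-positive calls and 60.0% of the GFP-negative calls. Another 16 members were called in neither population. Of these and other members, the per-library values of Pfkm, Pfkp, Pgam1, Pgam2, Bnip3 and Aldoa are given in full because of how they moved and were chosen after their values were seen. In bulk RNA, fewer cells that express a gene and less of its RNA per cell cannot be told apart.

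**Figure D3:**
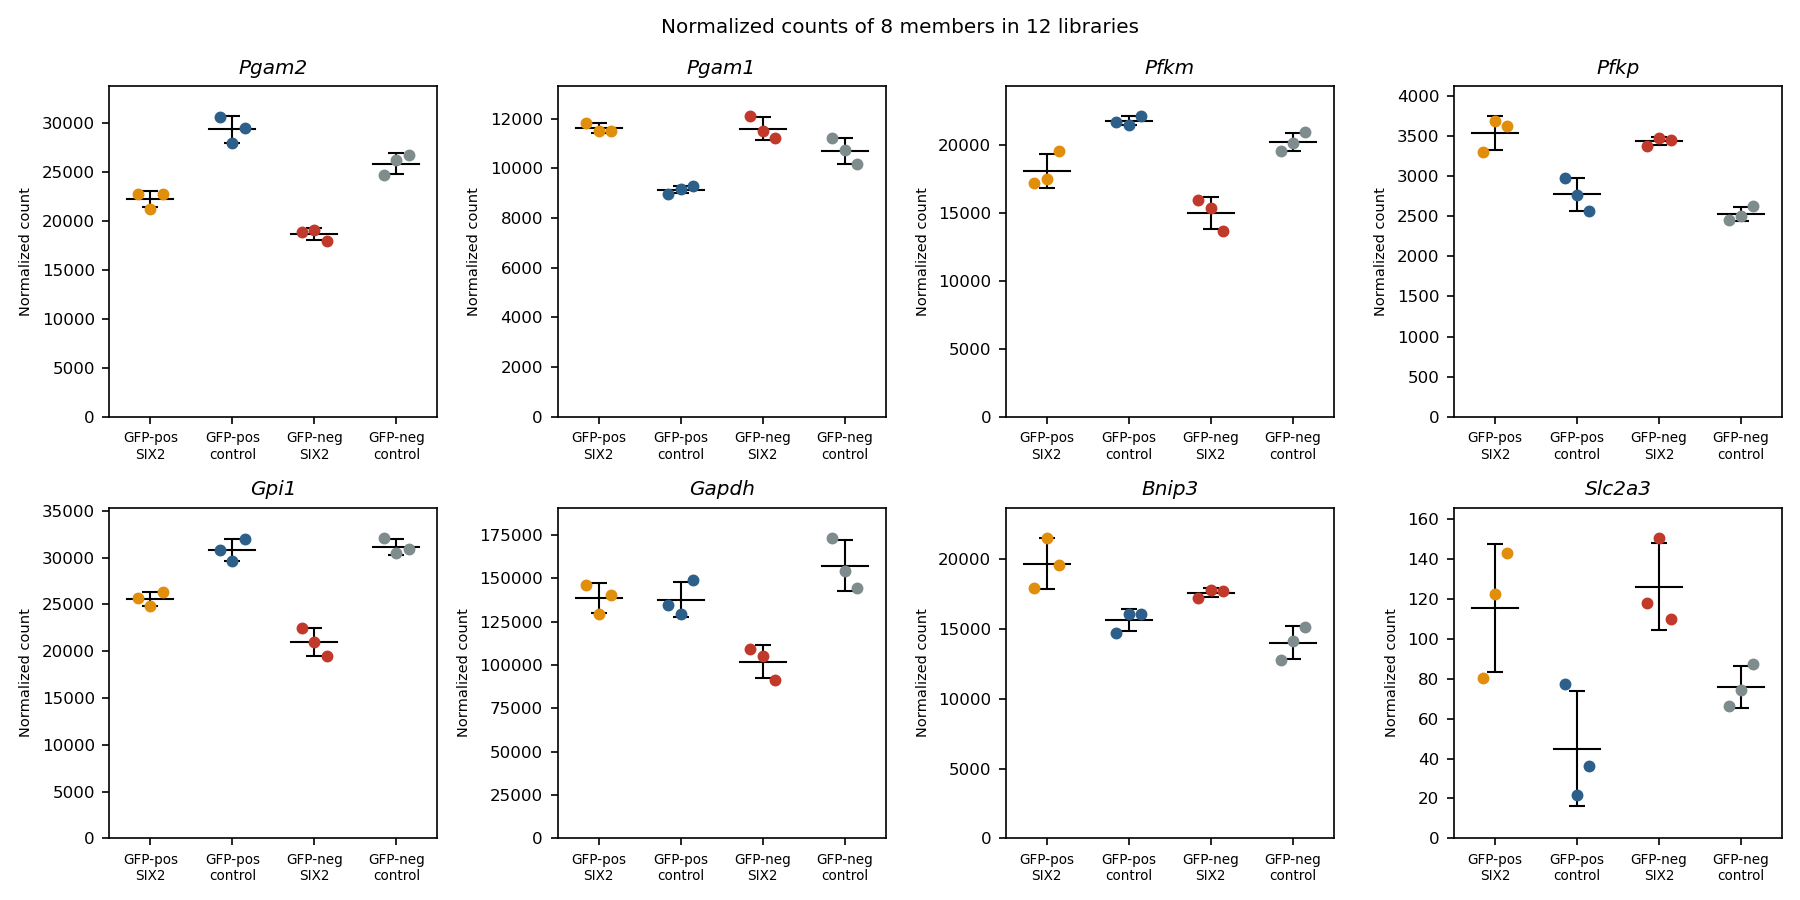
Normalized counts of 8 members in each of the 12 libraries (points), with the mean and SD of each group (black), in the order GFP-positive SIX2, GFP-positive control, GFP-negative SIX2 and GFP-negative control; each axis starts at 0. Pgam2, Pfkm and Gpi1 lie lower and Pfkp and Bnip3 higher under the SIX2 label in both populations, while Gapdh differs in GFP-negative cells, with 101998 against 157442 on average.

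At glucose entry, the high-affinity transporter Slc2a3 (GLUT3) had 80.4, 123 and 143 normalized counts in GFP-positive SIX2 libraries against 77.3, 21.6 and 36.3 in GFP-positive control libraries. The groups did not overlap, but the lowest SIX2 library lay just above the highest control library. The log2 change was 1.49 ± 0.37 (SE, limma-trend adjusted p = 0.0105), and it missed the threshold at an adjusted p of 0.0543 when only the GFP-positive libraries were fitted. In GFP-negative cells Slc2a3 had 118, 151 and 110.1 normalized counts under the SIX2 label against 66.4, 74.5 and 87.2 under the control label, a change of 0.72 ± 0.37 that missed the threshold (adjusted p = 0.17) and passed when only the GFP-negative libraries were fitted (adjusted p = 0.0252) or with library weights (0.85, adjusted p = 0.0253). The main transporter Slc2a1 (GLUT1) had 2245, 2395 and 2540.0 normalized counts in GFP-positive SIX2 libraries against 2542, 2544 and 2518 in GFP-positive control libraries. It had 2180.5, 2295 and 2121 in GFP-negative SIX2 libraries against 2433, 2278 and 2339 in GFP-negative control libraries. The Slc2a1 groups overlapped in both populations, and neither change passed (log2 changes -0.08 and -0.10, limma-trend adjusted p = 0.391 and 0.301).

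Hexokinase 2, encoded by Hk2, phosphorylates glucose and binds mitochondria. It had 977, 988 and 1042 normalized counts in GFP-positive SIX2 libraries against 705, 808 and 776 in GFP-positive control libraries, without overlap, a log2 change of 0.40 ± 0.11 (SE, limma-trend adjusted p = 0.0175). The call was lost without GFP-positive control library 1 (0.34, adjusted p = 0.0717) and without GFP-positive SIX2 library 3 (0.37, adjusted p = 0.0502). In GFP-negative cells Hk2 had 904, 1006 and 789 against 737, 675 and 845 normalized counts under the SIX2 and control labels, and the groups overlapped (0.26 ± 0.11, adjusted p = 0.0947). The ubiquitous hexokinase Hk1 did not pass in GFP-positive or GFP-negative cells (log2 changes 0.24 and 0.13, limma-trend adjusted p = 0.063 and 0.309).

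Glucose-6-phosphate isomerase, encoded by Gpi1 (chr7:34201330-34230336), fell in both populations. Its 25669, 24789.9 and 26294 normalized counts in GFP-positive SIX2 libraries compare with 30866, 29625 and 32018 in GFP-positive control libraries. GFP-negative SIX2 libraries had 22442, 21037 and 19484, against 32147, 30519 and 30893 in GFP-negative control libraries. No SIX2 library reached any control library of its population. The log2 change was -0.27 ± 0.06 in GFP-positive cells (limma-trend adjusted p = 0.00449) and -0.57 ± 0.06 in GFP-negative cells (adjusted p = 1.71e-05). Under quantile scaling the GFP-positive call was lost (-0.11, adjusted p = 0.199) and the GFP-negative call was not.

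Phosphofructokinase, the committed step of glycolysis, is built from muscle, liver and platelet subunits encoded by Pfkm, Pfkl and Pfkp. The muscle subunit gene Pfkm had 17189, 17510.0 and 19506 normalized counts in GFP-positive SIX2 libraries against 21682, 21456 and 22098 in GFP-positive control libraries. In GFP-negative cells it had 15950.3, 15362 and 13652 under the SIX2 label against 19544, 20099.7 and 20916 under the control label. In GFP-positive cells it fell by 17.0% (log2 change -0.27 ± 0.07, limma-trend adjusted p = 0.00947). In GFP-negative cells it fell by 25.9% (-0.43 ± 0.07, limma-trend adjusted p = 0.000333), and labels overlapped in neither.

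The platelet subunit gene Pfkp moved the other way. It had 3294, 3687 and 3623 normalized counts in GFP-positive SIX2 libraries against 2972, 2767 and 2569 in GFP-positive control libraries. The GFP-negative libraries had 3374, 3473 and 3449.6 under the SIX2 label against 2446, 2502 and 2625 under the control label. The groups did not overlap in either population, and the log2 changes were 0.35 ± 0.07 and 0.44 ± 0.07 (limma-trend adjusted p = 0.00244 in GFP-positive and 0.000391 in GFP-negative cells). Exons of Pfkp share 748 bases with Pitrm1 on the opposite strand, and the library protocol does not mark the strand, so reads there cannot be told apart. The liver subunit gene Pfkl passed in GFP-negative cells with a small change (0.17 ± 0.06, adjusted p = 0.0451) that was lost under 14 of 25 alternatives. It did not pass in GFP-positive cells (0.13 ± 0.06, adjusted p = 0.12). Pfkl was higher under the SIX2 label without overlap in both populations.

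Pfkfb3, whose product makes fructose 2,6-bisphosphate, an activator of phosphofructokinase, had 395, 542 and 614 normalized counts in GFP-positive SIX2 libraries against 318, 379.7 and 354 in GFP-positive control libraries. It had 448, 456 and 285 in GFP-negative SIX2 libraries against 263, 269.6 and 225 in GFP-negative control libraries. The labels did not overlap in either population, although 1 SIX2 library lay close to the control libraries in each. The change passed in GFP-negative cells (log2 0.62 ± 0.19, limma-trend adjusted p = 0.0291) and missed the threshold in GFP-positive cells (0.54 ± 0.19, adjusted p = 0.0603), where edgeR and DESeq2 called it (adjusted p = 0.0452 and 0.0229). The GFP-negative call was lost without any 1 of GFP-negative control libraries 1, 2 and 3 and GFP-negative SIX2 libraries 1 and 2, with adjusted p-values of 0.0526 to 0.118. Its paralog Pfkfb4 did not pass in either population (log2 changes 0.0024 and -0.06).

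At the aldolase and triose steps, Gapdh (chr6:125161715-125166467), the triose phosphate dehydrogenase that is often used as a reference gene, had the largest fall among the members called in either population. It had 109323, 105356 and 91315 normalized counts in GFP-negative SIX2 libraries against 173579, 154046 and 144700.0 in GFP-negative control libraries. It fell by 35.2% there (log2 change -0.63 ± 0.08, limma-trend adjusted p = 0.000144), without overlap. In GFP-positive cells it had 146312, 129343 and 140601 under the SIX2 label against 134930.0, 129356 and 148918 under the control label. Those groups overlapped and the log2 change was 0.01 ± 0.08 (adjusted p = 0.941). Near-identical copies of Gapdh, 54 of them in the table, summed to 1.61% of its normalized counts.

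Aldoa had 164998, 162130.0 and 179465 normalized counts in GFP-positive SIX2 libraries against 145465, 148165 and 160619 in GFP-positive control libraries. In GFP-negative SIX2 libraries it had 147235, 146221 and 128150.0, against 155963, 149531 and 157961 in GFP-negative control libraries. Each SIX2 library was above every control library in GFP-positive cells and below every control library in GFP-negative cells. Neither change passed (log2 0.16 ± 0.07, limma-trend adjusted p = 0.104, and -0.14 ± 0.07, adjusted p = 0.136). The triose phosphate isomerase gene Tpi1 did not pass (0.08 and -0.10), nor did the brain aldolase Aldoc, which was low at 40.4 normalized counts per kb in GFP-positive SIX2 and 33.6 in GFP-negative SIX2 libraries against 59.3 and 57.3 in the control libraries of each.

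In lower glycolysis the phosphoglycerate mutases diverged. The muscle form Pgam2 had 22714, 21234 and 22696 normalized counts in GFP-positive SIX2 libraries against 30609, 27915 and 29446 in GFP-positive control libraries. In GFP-negative cells it had 18885, 19044 and 17969 under the SIX2 label against 24637, 26161 and 26678 under the control label. All SIX2 libraries were below all control libraries, across both populations. Pgam2 fell by 24.2% in GFP-positive cells (log2 change -0.40 ± 0.05, limma-trend adjusted p = 0.000192). It fell by 27.8% in GFP-negative cells (-0.47 ± 0.05, limma-trend adjusted p = 5.2e-05).

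The broad form Pgam1 had 11844, 11502 and 11503 normalized counts in GFP-positive SIX2 libraries against 8987, 9169.9 and 9278 in GFP-positive control libraries. The log2 change there was 0.35 ± 0.05 (limma-trend adjusted p = 0.000429), without overlap. In GFP-negative cells it had 12109.8, 11489.9 and 11220.3 under the SIX2 label against 11226, 10753 and 10168 under the control label, with overlap (0.12 ± 0.05, adjusted p = 0.122). It was thus nearly level between the populations under the SIX2 label and lower in GFP-positive cells under the control label.

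Phosphoglycerate kinase, Pgk1, passed in GFP-positive cells (log2 change 0.28 ± 0.06, limma-trend adjusted p = 0.00287) and not in GFP-negative cells (0.13 ± 0.06, adjusted p = 0.102). The broad enolase Eno1 passed in GFP-negative cells (0.25 ± 0.07, adjusted p = 0.0181) and not in GFP-positive cells (-0.07 ± 0.07, adjusted p = 0.498), and its call was lost without any 1 of GFP-negative control libraries 1 and 2 and GFP-negative SIX2 libraries 2 and 3 (adjusted p up to 0.0681). The muscle enolase Eno3 did not pass in either (-0.08 in both). In GFP-positive cells its 78106, 76905 and 79926 normalized counts under the SIX2 label lay below the 86216, 81785 and 80303 under the control label. Its groups overlapped in GFP-negative cells.

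Pyruvate kinase, Pkm, which makes pyruvate and ATP in the last step, had 139638, 138073 and 145468 normalized counts in GFP-positive SIX2 libraries against 119640.0, 119305 and 121889 in GFP-positive control libraries. The log2 change was 0.23 ± 0.05 (limma-trend adjusted p = 0.00592), without overlap. In GFP-negative cells Pkm had 129332, 131441 and 118132 against 119027, 116756 and 121638 normalized counts under the SIX2 and control labels, with overlap (0.08 ± 0.05, adjusted p = 0.261). The table holds 1 value per gene, so the splice forms of Pkm, which differ between resting muscle and dividing cells, were not separated.

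Lactate dehydrogenase A, Ldha, had 136416, 135097 and 141552 normalized counts in GFP-positive SIX2 libraries against 107407, 105865 and 113810.0 in GFP-positive control libraries. It was 26.3% higher (log2 change 0.34 ± 0.06, limma-trend adjusted p = 0.00115), without overlap. In GFP-negative cells it had 121062, 119856 and 104992 under the SIX2 label against 111136, 111048 and 114528 under the control label, and the groups overlapped (0.04 ± 0.06, adjusted p = 0.694). Under quantile scaling the GFP-negative changes passed for Ldha (0.35, limma-trend adjusted p = 5.5e-05), for Pkm (0.32, adjusted p = 4.8e-05) and also for Pgam1 and Pgk1 (0.20 and 0.29, adjusted p = 0.0181 and 0.00142). Pkm passed there too with the GC trend removed and with library weights. Library 3 of the GFP-negative SIX2 group was lowest of its group for Ldha, Pkm, Gapdh and Aldoa alike.

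Among the other genes of lactate and pyruvate handling, Slc16a1 (MCT1), a lactate transporter, fell in both populations (log2 change -0.29 ± 0.08 in GFP-positive and -0.23 ± 0.08 in GFP-negative cells, limma-trend adjusted p = 0.015 and 0.0383). Its GFP-negative call was lost under 10 of 25 alternatives and its GFP-positive call under quantile scaling and without GFP-positive SIX2 library 1 (adjusted p up to 0.0527). Pdk1, a kinase that inhibits pyruvate dehydrogenase, passed in GFP-positive cells (0.32 ± 0.10, adjusted p = 0.0318), and this call was lost under 5 of 25 alternatives, among them the omission of either GFP-positive control library 1 or 3 or GFP-positive SIX2 library 2 or 3 (adjusted p up to 0.116). The exporter Slc16a3 and the heart lactate dehydrogenase Ldhb did not pass in either population.

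Ratios of paired forms within a library do not depend on how libraries are scaled, and 12 such pairs were compared. Plasmid labels were permuted within each GFP label in an exact two-sided permutation test of 400 arrangements, whose smallest possible p is 0.005, and 7 pairs reached it (Benjamini-Hochberg adjusted p = 0.00857 over the 12 pairs). Pfkm/Pfkp and Pfkm/Pfkl among them share a gene. The share of pairs of other genes that would reach this p was not tested, so the count is not shown to be particular to these pairs. The Pgam2/Pgam1 ratio was 1.92, 1.85 and 1.97 in GFP-positive SIX2 libraries against 3.41, 3.04 and 3.17 in GFP-positive control libraries. The GFP-negative libraries had 1.56, 1.66 and 1.60 under the SIX2 label against 2.19, 2.43 and 2.62 under the control label. The mean log2 change over both populations was -0.67.

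The Pfkm/Pfkp ratio was 5.22, 4.75 and 5.38 in GFP-positive SIX2 libraries against 7.30, 7.75 and 8.60 in GFP-positive control libraries. The GFP-negative libraries had 4.73, 4.42 and 3.96 under the SIX2 label against 7.99, 8.03 and 7.97 under the control label. Its mean log2 change was -0.75, and that of Pfkm/Pfkl was -0.50. At both steps the balance therefore lay further from the muscle form under the SIX2 label in each library of each population. The enolase pair did not pass, and the Eno3/Eno1 ratio averaged 1.30 ± 0.04 in GFP-positive SIX2 and 1.31 ± 0.08 in GFP-positive control libraries (SD, n = 3 each). The means in GFP-negative cells were 1.104 ± 0.080 under the SIX2 label and 1.39 ± 0.03 under the control label (SD, n = 3 each), without overlap. Over both populations the mean log2 change of this ratio was -0.17 (exact permutation p = 0.05, adjusted p = 0.075).

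**Figure D4:**
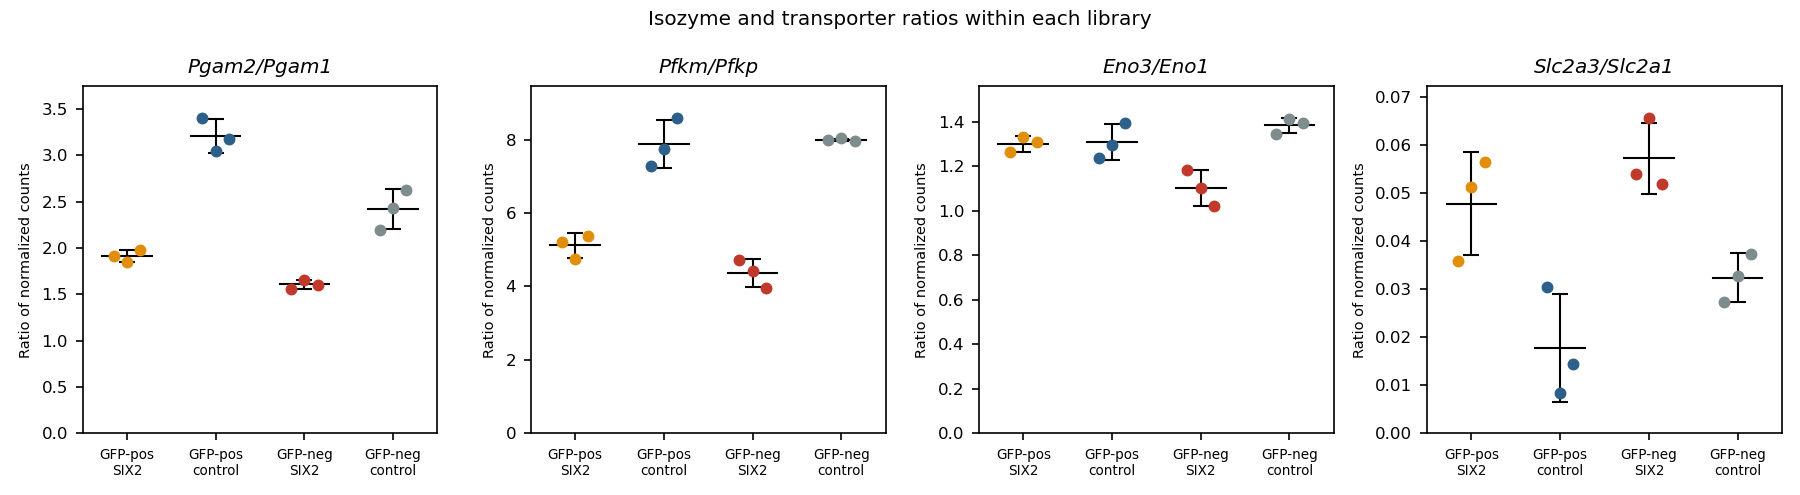
Ratio of normalized counts of paired genes within each library (points) with the mean and SD of each group (black), in the order GFP-positive SIX2, GFP-positive control, GFP-negative SIX2 and GFP-negative control; each axis starts at 0. Pgam2/Pgam1 and Pfkm/Pfkp are lower under the SIX2 label in both populations, Slc2a3/Slc2a1 is higher, and Eno3/Eno1 is lower in the GFP-negative libraries, with 1.104 against 1.39 on average.

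The other pairs at the smallest possible p were Slc2a3/Slc2a1 (mean log2 change 1.19), Aldoc/Aldoa (-0.74), Pfkfb4/Pfkfb3 (-0.61) and Slc16a3/Slc16a1 (0.19). The genes Slc2a3, Aldoc, Pfkfb3 and Pfkfb4 among them are low, with 22.9, 47.6, 79.0 and 57.4 normalized counts per kb. Hk2/Hk1, Ldhb/Ldha, Egln3/Egln1 and P4ha2/P4ha1 did not pass (exact permutation p = 0.2, 0.3, 0.255 and 0.285).

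Of the oxygen-sensing genes, none of 3 passed in either population. Hif1a, the regulated subunit of HIF-1, had 2912, 3671 and 3413 normalized counts in GFP-positive SIX2 libraries against 3301, 4022 and 3365 in GFP-positive control libraries. It had 3456, 3748 and 3707 in GFP-negative SIX2 libraries against 3215, 3473 and 3430.3 in GFP-negative control libraries. The groups overlapped in both (log2 changes -0.10 ± 0.09 and 0.11 ± 0.09, limma-trend adjusted p = 0.499 and 0.422). HIF-1 is controlled mainly through the stability of its protein, which RNA does not measure.

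The prolyl hydroxylase Egln1 had a log2 change of -0.11 ± 0.23 in GFP-positive cells and 0.64 ± 0.23 in GFP-negative cells, where it missed the threshold narrowly (limma-trend adjusted p = 0.0518). Egln3 changed by 0.02 and -0.14 on the log2 scale and did not pass.

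Among the 6 other hypoxia targets, Bnip3 and Ndrg1 passed. Bnip3, a mitophagy receptor, had 17932, 21549 and 19548 normalized counts in GFP-positive SIX2 libraries against 14734, 16095 and 16054 in GFP-positive control libraries. In GFP-negative cells it had 17249, 17813 and 17735 under the SIX2 label against 12779, 14153 and 15154 under the control label. It was higher in 6 of 6 SIX2 libraries, and the log2 change was 0.33 ± 0.07 in both populations (limma-trend adjusted p = 0.0062 in GFP-positive and 0.00496 in GFP-negative cells). Exons of Bnip3 share 504 bases with the antisense gene Gm45507, and reads there cannot be told apart. Other members share exon bases with other genes too, among them Pkm (767 with Gm49759), Pfkm (341 with Gm26513), Gpi1 (741 with Gm26762) and Ndrg1 (419 with Gm17035).

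Ndrg1, a stress-responsive gene linked to differentiation, had 305, 144 and 285 normalized counts in GFP-positive SIX2 libraries against 117, 121 and 94.5 in GFP-positive control libraries. The groups did not overlap, but SIX2 library 2 lay near the control libraries. The log2 change was 1.07 ± 0.28 (limma-trend adjusted p = 0.0143), and without GFP-positive SIX2 library 1 it missed the threshold (0.88, adjusted p = 0.0597). In GFP-negative cells Ndrg1 had 174, 209 and 165 against 259, 189 and 133 normalized counts under the SIX2 and control labels, with overlap (-0.04 ± 0.28, adjusted p = 0.937).

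Vegfa, the classical angiogenic target, had 33.9, 46.8 and 42.3 normalized counts in GFP-positive SIX2 libraries against 45.9, 39.8 and 75.9 in GFP-positive control libraries. It had 87.8, 50.7 and 63.8 in GFP-negative SIX2 libraries against 79.3, 50.7 and 47.8 in GFP-negative control libraries. Both populations overlapped between labels (log2 changes -0.34 ± 0.32 and 0.18 ± 0.32, limma-trend adjusted p = 0.486 and 0.708). Ankrd37 and the collagen prolyl hydroxylases P4ha1 and P4ha2 did not pass in either population, with log2 changes of -0.05 to 0.06 in GFP-positive cells and -0.20 to -0.06 in GFP-negative cells.

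Between the sorted populations under the control label, 1 of 34 members passed, beside a background of 3.48%, of which 0.919% higher and 2.56% lower: Pgam1 was lower in GFP-positive cells (log2 change -0.23 ± 0.05, limma-trend adjusted p = 0.0347). That call was lost under 8 of 25 alternatives, including without GFP-positive control library 1 or 2, GFP-negative control library 1 or 2, or GFP-negative SIX2 library 2 (adjusted p up to 0.16). Without overlap, 9 members were higher and 2 lower in GFP-positive control libraries, beside 13% and 14.1% of all genes. With the SIX2 label 0 members passed in limma-trend and in edgeR's quasi-likelihood test, beside a background of 0.192% (0.0137% higher and 0.178% lower), while 15 had an unadjusted p under 0.05 and DESeq2 called 8. For 15 members every GFP-positive SIX2 library was above every GFP-negative SIX2 library, beside 9.05% of all genes tested, and for 1, Vegfa, below, beside 8.16%. The 15 included Gapdh, Aldoa, Ldha, Pkm, Pgk1 and Eno3, with log2 changes of 0.14 to 0.45 in these 6. The GFP-positive SIX2 libraries had 12632428 to 15492340 reads and the GFP-negative SIX2 libraries 34048869 to 40182810. With the reads of all libraries thinned to the smallest total, 0 members passed and 14 had an unadjusted p under 0.05.

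The difference of the plasmid-label change between populations, GFP-positive minus GFP-negative, was tested as an interaction. It passed for 0 members and 0% of all genes in limma-trend and for 0 members in edgeR, while 10 members had an unadjusted p under 0.05 and DESeq2 called 4, Gapdh, Gpi1, Ldha and Ndrg1. Gapdh had the smallest adjusted p of all genes, with a difference of 0.64 ± 0.12 on the log2 scale (limma-trend adjusted p = 0.0751). A call in only 1 of the populations, such as those of Gapdh and Ldha, was therefore not shown by the main test to differ between them.

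Other genes of the pathway were read from lists of non-members. Of 14 further glycolysis genes tested, 0 rose and 2 fell in GFP-positive cells, and 3 rose and 3 fell in GFP-negative cells. These are shares of 14.3% and 42.9%, beside backgrounds of 23.3% and 27.9% of all genes tested. Bsg, which carries monocarboxylate transporters to the membrane, fell in both (log2 changes -0.30 and -0.34, limma-trend adjusted p = 0.000857 and 0.000232). Of 13 genes of pyruvate entry into mitochondria, 15.4% passed in GFP-positive and 7.69% in GFP-negative cells, below the same backgrounds. In GFP-positive cells 2 fell, the carrier subunit Mpc2 (-0.44, limma-trend adjusted p = 0.00289) and the dehydrogenase subunit Dld (-0.34, adjusted p = 0.00683). Pdha1 fell in GFP-negative cells (-0.16, adjusted p = 0.0388).

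Of 6 pentose phosphate genes, 2 rose and 1 fell in each population, a share of 50% beside backgrounds of 23.3% in GFP-positive and 27.9% in GFP-negative cells. G6pdx, the first enzyme of the pathway, averaged 2143 ± 249.1 normalized counts in GFP-positive cells under the SIX2 label and 1092 ± 85.6 under the control label (SD, n = 3 each). In GFP-negative cells its means were 2069 ± 215 under the SIX2 label and 1418 ± 207 under the control label (SD, n = 3 each). Its log2 changes were 0.97 and 0.55, and those of the transketolase Tkt 0.88 and 0.55, while the transaldolase Taldo1 changed by -0.42 and -0.27 (limma-trend adjusted p up to 0.0344 among these). Of 17 glycogen genes, 1 rose and 2 fell in GFP-positive cells and 1 rose and 7 fell in GFP-negative cells. These shares were 17.6% and 47.1%, beside the same backgrounds. Gaa, the lysosomal glucosidase, and Ugp2, which makes UDP-glucose, fell in both populations (-0.48 and -0.56 in GFP-positive, -0.76 and -0.49 in GFP-negative cells).

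Of 46 further hypoxia targets, 9 rose and 3 fell in GFP-positive cells and 10 rose and 5 fell in GFP-negative cells, shares of 26.1% and 32.6% that lie near the backgrounds of 23.3% and 27.9%. The feedback inhibitor of EGF receptor signalling Errfi1 had log2 changes of 0.92 and 0.93, the placental growth factor Pgf 1.46 and 1.16, and the adenylate kinase Ak4 0.51 and 0.79, all past the limma-trend threshold, in GFP-positive and GFP-negative cells. The circadian repressor gene Bhlhe41 fell in both (-0.46 and -0.49, limma-trend adjusted p = 0.00313 and 0.00154). Of 18 genes of the hypoxia-sensing machinery, 0 rose and 2 fell in GFP-positive cells, and 1 rose and 2 fell in GFP-negative cells. These shares of 11.1% and 16.7% lie below the backgrounds. Among 20 regulators of glycolysis, 2 rose and 2 fell in GFP-positive and 3 rose and 3 fell in GFP-negative cells, shares of 20% and 30% near the backgrounds. Myc, which activates many glycolytic genes, was among those that rose, with 0.52 and 0.74 on the log2 scale (limma-trend adjusted p = 0.0272 and 0.0031). In GFP-negative cells Tfeb and Rptor fell (-1.45 and -0.59, limma-trend adjusted p = 0.00147 and 0.00386) and Sp1 rose (0.83, adjusted p = 0.00338). Tfeb, Rptor and Sp1 did not pass in GFP-positive cells.

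Markers of cell state moved with the plasmid label beside the members. Of 29 genes of myogenic differentiation, 22 fell and 0 rose in GFP-positive cells and 25 fell and 0 rose in GFP-negative cells. Of 25 proliferation genes, 24 rose and 0 fell in GFP-positive cells and 24 rose and 1 fell in GFP-negative cells. In GFP-positive and GFP-negative cells these were shares of 75.9% and 86.2% of the first list and 96% and 100% of the second. Backgrounds over all genes tested were 23.3% in GFP-positive cells (12.1% higher, 11.2% lower) and 27.9% in GFP-negative cells (13.6% higher, 14.3% lower). Fusion gene Mymx had log2 changes of -0.88 and -0.83, and cyclin gene Ccnb1 of 1.32 and 1.15. The muscle isozyme genes Pgam2 and Pfkm fell beside the first list in both populations. The muscle form Eno3 passed in neither, although its mean was lower under the SIX2 label in both. Of the broad forms, Pfkp passed as higher in both populations. Pgam1 passed as higher in GFP-positive cells, and Pfkl and Eno1 did so in GFP-negative cells. No member passed the interaction in limma-trend, so these changes were not shown to differ between the populations. The part of differentiation and proliferation in the members' changes was not tested.

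Of 5 fibroblast markers tested, 3 rose in GFP-positive and 4 in GFP-negative cells, with a summed level of 5641 to 6711 normalized counts in GFP-positive SIX2 libraries against 2461 to 3160.0 in GFP-positive control libraries, and 5819.5 to 6237 in GFP-negative SIX2 against 2663 to 3969 in GFP-negative control libraries. Col1a1 averaged 996 against 147 normalized counts in GFP-positive and 947 against 224 in GFP-negative cells under the SIX2 and control labels. In the same order, Col3a1 averaged 3664 against 1615 and 3618 against 1972, and Ly6a 27.2 against 4.77 and 32.2 against 8.93. Dcn and Pdgfra averaged at most 0.60 and 15.6 normalized counts in any group. The shares of fibroblast markers called were 60% in GFP-positive and 80% in GFP-negative cells, beside backgrounds of 23.3% and 27.9% of all genes tested. The part of fibroblasts in the members' changes was not tested. Of 4 immune markers 1 rose in each population, with sums of 186 to 223 in GFP-positive SIX2 against 184 to 227 in GFP-positive control and 173 to 208 in GFP-negative SIX2 against 212 to 238 in GFP-negative control libraries. Of 10 muscle stem cell markers 4 rose and 1 fell in GFP-positive cells and 4 rose and 4 fell in GFP-negative cells, of 6 pericyte and smooth muscle markers 2 rose and 1 fell and 2 rose and 2 fell, and of 2 glial markers 1 fell in each. The share of immune markers called was 25% in each population, near the backgrounds, and that of glial markers was 50% in each. In GFP-positive and GFP-negative cells the shares were 50% and 80% for muscle stem cell markers. They were 50% and 66.7% for pericyte and smooth muscle markers. The 1 endothelial marker tested, Vwf, fell in both populations. Endothelial sums stayed at or below 136 normalized counts in every library, and Cdh5 and Pecam1 averaged at most 2.43 and 6.15. Of the muscle stem cell markers, Des had group means of at least 105967 and Myf5 of at least 1618 normalized counts, while Pax7 averaged 98.0 to 170 and Chodl 5.79 to 11.0. Des fell and Myf5 rose under the SIX2 label in both populations.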

How the data were processed

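Bulk RNA was measured in 12 libraries, made by SMART-Seq2 from at least 50000 cells each, per the labels' protocols. The deposited values are a signal per gene, read counts that the authors divided by a size factor per library. Per the submitters' processing notes, the tools were STAR 2.7.11a, RSEM 1.3.3 and DESeq2 1.42.0, with the genome GRCm38. Multiplying back gave whole reads for 100% of values within 1e-04, and median-of-ratios factors computed again from these whole reads equalled the authors' within 2.9e-15.

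Genes reaching 10 normalized counts in 3 or more libraries (14580 of 23586) were fitted in limma 3.58.1 as log2(normalized count + 1) with a trend, as 1 model of 4 group means over 12 libraries. Fold changes are on that scale, which understates changes of low genes. P-values are two-sided and Benjamini-Hochberg adjusted over all genes tested, with a threshold of 0.05. In simulated data 100 genes changed at each fold, all with a mean above 50. A 1.5-fold change was recovered for 46% of them in GFP-positive and 43% in GFP-negative cells, and a 2-fold change for 82% and 86%. Far more genes, 3394 and 4075, were called in the real plasmid comparisons, so these rates do not measure the recovery there. The edgeR 4.0.16 quasi-likelihood test and DESeq2 1.42.0 were run on the recovered reads as alternatives, with other pseudocounts, filters, scalings and library omissions. The GC trend and library weights were added after seeing the data.

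Members and lists were chosen with earlier results of these data known. Named genes were those that the rule on size took (called, with a log2 change of at least 0.5) and a few fixed genes, and genes added for their values are said to be so. Positions and lengths came from GENCODE M21 (99.8% of identifiers matched) and promoters from RefSeq, and the results of 1 further promoter motif searched are not reported here. Libraries of a group differed by more than counting noise (chi-square over degrees of freedom 7.18 to 45.3).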

Additional observations from a re-analysis of the deposited data

Results flagged for a closer look

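Aldoa was flagged because its libraries were ordered in opposite ways in the sorted populations. Every SIX2 library lay above every control library in GFP-positive cells and below every control library in GFP-negative cells. Neither change passed in limma-trend. Of all genes tested, 18.7% were higher without overlap in GFP-positive cells and 23.5% lower without overlap in GFP-negative cells. The share of genes meeting both conditions was not counted. The difference between the changes was 0.30 on the log2 scale, and its test did not pass (limma-trend adjusted p = 0.157).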

How the results depend on the processing

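Of 25 called member results, 14 stayed past the threshold under every alternative run (up to 25 each) and 0 reversed. Members called between GFP-positive and GFP-negative control libraries (1) numbered 0 without the filter, with the replicate block and with only the compared libraries, 3 in DESeq2, 2 with the GC trend removed, 7 with library weights and 0 to 2 without single libraries. Under the SIX2 label (0) they numbered 8 in DESeq2, 1 with the GC trend removed and 0 to 2 without single libraries. For the interaction (0) they numbered 4 in DESeq2, 2 with library weights and 0 to 1 without single libraries. Plasmid-label calls in GFP-negative cells (10) numbered 18 with library weights and 6 to 12 without single libraries, 6 without GFP-negative control library 1; those in GFP-positive cells (14) numbered 12 to 15 without single libraries and 16 in DESeq2, with quantile scaling and with library weights. Over all genes, 507 calls between control populations became 1068 in DESeq2, 1520 with weights, 298 with the block and 68 to 820 without single libraries; 28 under the SIX2 label became 283 in DESeq2 and 13 to 60 without single libraries; 0 for the interaction became 538 in DESeq2, 282 with weights, 171 without GFP-positive control library 3 and 56 without GFP-positive SIX2 library 3; 4075 in GFP-negative cells became 6142 with weights. Same-numbered libraries did not deviate together (r = -0.20 to 0.05 over 18 pairs). The labels do not say whether the numbers pair libraries, and these correlations cannot settle it. With the replicate block, 14 and 8 members were called in GFP-positive and GFP-negative cells. Paired by number, the ratios Pgam2/Pgam1 (-0.67), Pfkm/Pfkp (-0.75), Pfkm/Pfkl (-0.50), Aldoc/Aldoa (-0.74), Slc16a3/Slc16a1 (0.19), Slc2a3/Slc2a1 (1.19) and Pfkfb4/Pfkfb3 (-0.61) missed the threshold (exact p = 0.03125, the smallest the pairing allows, adjusted p = 0.0536). Without single libraries, Eno3/Eno1 ranged from -0.19 to -0.14 and was past the threshold without GFP-positive control library 1. Hk2/Hk1 ranged from 0.084 to 0.22 and was past it without GFP-negative control library 3. The causes were not tested.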
